A study of Mus musculus with 3 samples.

Results

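The genes described here were 9 genes of matrix turnover: the tissue inhibitors of metalloproteases Timp1, Timp2, Timp3 and Timp4, the matrix metalloproteases Mmp2, Mmp14 and Mmp3, the procollagen protease Adamts2, and Fap, a serine protease of fibroblasts. They were taken by gene symbol from 29994 genes, and all 9 were found. RNA had been counted per droplet barcode (10x Genomics) in frozen ventricular tissue of C57B6 mice, and each group was a single library made from 3 hearts pooled together. The groups were TAC with artesunate (TAC+ART), TAC with vehicle, and Sham with vehicle. TAC is transverse aortic constriction, an operation that narrows the aorta and loads the left ventricle, Sham is the control operation, and artesunate is an antimalarial drug of the artemisinin family. Every value therefore describes 3 pooled libraries and no p-value could be given. The labels used here give no age, sex, dose or time after surgery. They leave unstated if cells or isolated nuclei went into the droplets, so a barcode is called a cell below.

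Matrix metalloproteases are zinc enzymes that cut collagens and other matrix proteins, and the Timp proteins block them by binding in their active site. Mmp14 sits in the plasma membrane and, together with Timp2, brings the gelatinase Mmp2 to the cell surface and activates it. Adamts2 works at the building end instead: it trims the amino-terminal propeptide of fibrillar procollagens so that fibres can form. In the pressure-loaded heart, fibroblasts are the main makers of new matrix, and the balance of these enzymes and inhibitors is a standard theme of cardiac fibrosis.

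The libraries held 6856 barcodes in TAC+ART, 7413 in TAC and 3752 in Sham, with medians of 4524.5, 4811 and 4310 molecules (unique molecular identifiers, UMIs) per barcode, and 6480, 6972 and 3638 cells stayed after filtering. Cells were put in a class by a score over fixed marker genes, which left 7 classes with at least 50 cells in every library. Fibroblasts, chosen by Pdgfra, Dcn, Col1a1 and 7 further markers, numbered 1404 in TAC+ART, 1290 in TAC and 854 in Sham. Of these, 96.9%, 92.5% and 99.5% also lay in a cluster named fibroblast by the same markers. Cardiomyocytes were a less secure class, since 61.4% in TAC+ART, 43.7% in TAC and 85.5% in Sham lay in a cardiomyocyte cluster. Levels are in CPM, the UMIs of a gene over all UMIs of its class in the same library, scaled in the usual way, and intervals are 95% intervals that cover counting error only, not differences between hearts. Fibroblast RNA was also counted in other classes. The summed level of the 10 fibroblast markers in the 6 other classes was 18.5 to 25.4% of the fibroblast level in TAC+ART, 17.5 to 27.4% in TAC and 8.38 to 19.3% in Sham, and no marker of the list was at 0 in any class. Its part in the levels that other classes show below was not tested.

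The 9 genes fell into different cell types. Timp4 was an endothelial gene in these libraries, Timp3 was highest in lymphatic endothelium, and Fap was highest in pericytes, while Timp1, Mmp2, Mmp3 and Adamts2 were highest in fibroblasts in TAC. Mmp14 and Timp2 were shared between fibroblasts and lymphatic endothelium, and Timp2 was also plentiful in macrophages. In fibroblasts, the TAC library had the highest level of Timp1, Mmp3, Mmp14, Adamts2, Timp2 and Mmp2 and the lowest level of Timp3 and Fap.

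**Figure D1:**
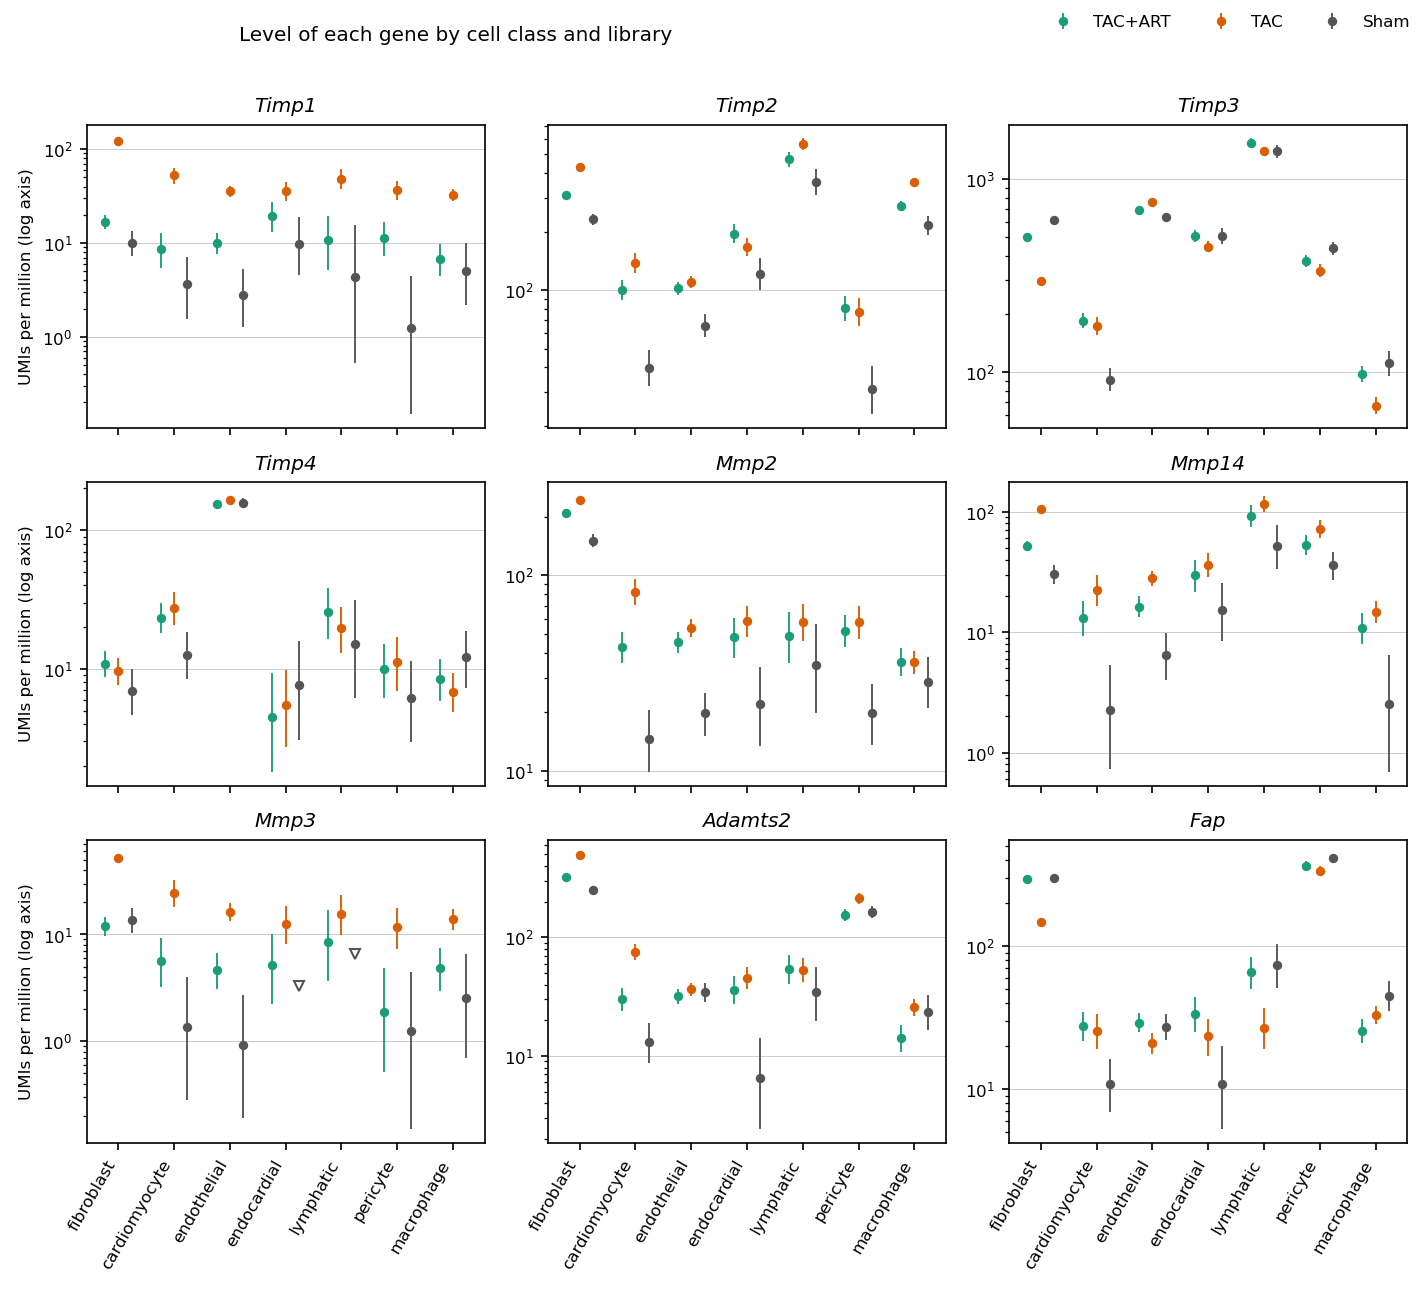
Level of each of the 9 genes (CPM of the class, log axis) in 7 cell classes, with TAC+ART, TAC and Sham side by side. Points are 1 library each, bars are 95% Poisson intervals, and open triangles mark the limit that 0 UMIs allow; Timp1 and Mmp3 were highest in TAC in every class, Timp4 stands out in endothelial cells, and Fap is 147 CPM in TAC fibroblasts against 336 CPM in TAC pericytes.

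Across all 9 genes in fibroblasts, 6 were at least 1.5-fold higher in TAC than in Sham and 2 were at least 1.5-fold lower. All 9 had the 100 UMIs in both libraries together that were required for such a call. Of the 10706 genes with that many UMIs, 16.8% were called higher and 11.2% lower, and their median log2 ratio was 0.03, while the median of the 9 was 0.89, the value of Timp2. In TAC+ART against TAC, 2 of the 9 were higher and 4 lower, where 6.46% and 6.61% of 11479 genes were called in those directions. The median of the 9 was -0.48 there, again the value of Timp2, and that of all genes -0.05. These comparisons share the TAC library, so a TAC library that differs for any reason moves both, and they are given side by side only. In TAC+ART against Sham, 3 of the 9 were higher and 0 lower (8.77% and 4.39% of 10670 genes). The 9 genes were chosen with earlier results of these data known, so no excess over all genes is read from these counts and medians.

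**Figure D2:**
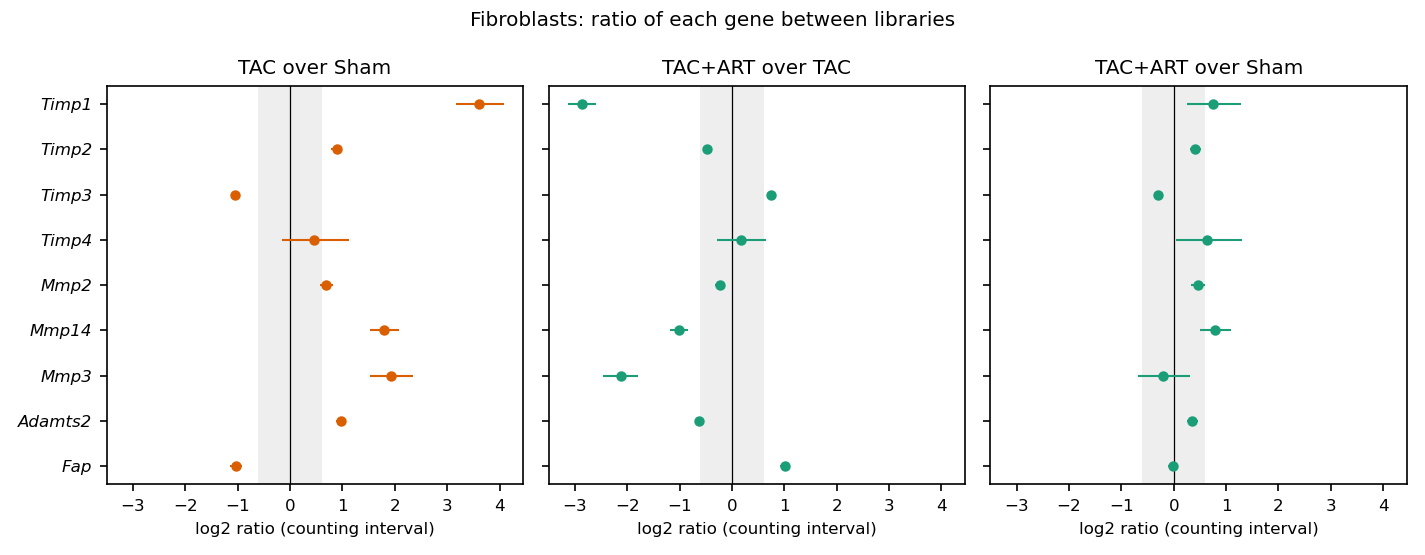
Log2 ratio of each gene in fibroblasts for TAC over Sham, TAC+ART over TAC and TAC+ART over Sham, with 95% conditional binomial intervals for counting error; the grey band is less than 1.5-fold. Timp1 shows the largest ratios, 3.60 and -2.86, Timp3 and Fap run opposite to the other called genes, and in TAC+ART over Sham the points lie between -0.31 and 0.78.

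Timp1 (chrX:20870166-20874735, plus strand, GRCm38), the inhibitor that is classically induced in scarring tissue, had the largest difference. Its fibroblast level was 16.8 CPM in TAC+ART, 122 CPM in TAC and 9.95 CPM in Sham, from 132, 977 and 43 UMIs. TAC exceeded Sham by 3.60 on the log2 scale (interval 3.18 to 4.09), which is 12.1-fold. TAC+ART against TAC gave -2.86 (-3.14 to -2.60), and TAC+ART was still 0.74 (0.25 to 1.28) above Sham. The TAC+ART level lay much nearer to Sham than to TAC, and its interval of 14.0 to 19.9 CPM overlapped neither.

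The Timp1 difference was spread over many fibroblasts, with a tail of rich ones. After every cell was thinned to 1000 UMIs, 1.64% of TAC+ART, 10.7% of TAC and 0.703% of Sham fibroblasts held a Timp1 UMI; without thinning the shares were 7.69, 36.6 and 3.16%. Cardiomyocytes, given for comparison, had thinned shares of 1.41% in TAC+ART, 6.76% in TAC and 0.293% in Sham. Their median depths were 4087.5, 3072 and 7047 UMIs against 5427.5, 6271 and 4811.5 in fibroblasts. The TAC intervals, 9.07 to 12.5% in fibroblasts and 4.73 to 9.32% in cardiomyocytes, just overlapped, and in TAC+ART and Sham the shares of the 2 classes cannot be separated. By CPM the classes did separate, with 8.53 CPM (5.46 to 12.7) in TAC+ART cardiomyocytes and 3.62 CPM (1.56 to 7.14) in Sham cardiomyocytes, both below the fibroblast intervals. At least 4 Timp1 UMIs were found in 3 TAC+ART, 46 TAC and 3 Sham fibroblasts, and the richest cell held 6, 38 and 5.

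In the 6 other classes Timp1 was also highest in TAC, at 32.6 CPM in macrophages to 52.4 CPM in cardiomyocytes, against 6.76 to 19.3 CPM in TAC+ART and 1.24 to 9.87 CPM in Sham. Relative to fibroblasts of the same library, this was 40.3 to 115% in TAC+ART, 26.7 to 42.9% in TAC and 12.4 to 99.1% in Sham, above the share of the fibroblast marker list in each class of TAC+ART and TAC. In endothelial cells, 60 UMIs were counted in TAC+ART, 239 in TAC and 9 in Sham, and the TAC over Sham ratio was 3.61 (2.74 to 4.83). The macrophage ratio was 2.60 (1.67 to 3.91), from 190 TAC and 8 Sham UMIs. So TAC was highest in every class. TAC+ART stood above Sham in each, but the interval of that ratio included 0 in macrophages (0.35, -0.76 to 1.75), lymphatic endothelial cells (1.04, -0.94 to 4.52) and endocardial cells (0.92, -0.14 to 2.23). Fibroblasts held 34.5, 45.2 and 47.3% of all Timp1 UMIs in TAC+ART, TAC and Sham.

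Timp2 (chr11:118301069-118355740, minus strand), which both inhibits metalloproteases and serves as the adaptor for Mmp2 activation, differed less. It was 309 CPM in TAC+ART fibroblasts, 429 CPM in TAC and 232 CPM in Sham. The ratio of TAC over Sham was 0.89 (0.79 to 0.99), and that of TAC+ART over TAC was -0.48 (-0.55 to -0.40), short of 1.5-fold. Lymphatic endothelial cells had the highest level, 472 CPM in TAC+ART, 565 CPM in TAC and 361 CPM in Sham, and macrophages came close to fibroblasts with 272, 359 and 216 CPM. Within Sham, the intervals of fibroblasts (218 to 247 CPM) and macrophages (193 to 239.9 CPM) overlapped. Macrophages also showed the TAC difference, 0.73 (0.57 to 0.91) over Sham, and endothelial cells showed 0.74 (0.52 to 0.97). Timp2 was therefore higher in TAC in several classes, macrophages and lymphatic endothelium (0.64, interval 0.40 to 0.89) included.

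Timp3 (chr10:86300372-86349506, plus strand), the inhibitor that stays bound to the matrix and also acts on ADAM and ADAMTS proteases, went the other way in fibroblasts. It was 499 CPM in TAC+ART, 298 CPM in TAC and 617 CPM in Sham, from 3927, 2386 and 2667 UMIs. TAC over Sham was -1.05 (-1.13 to -0.97), TAC+ART over TAC 0.74 (0.67 to 0.82), and TAC+ART over Sham -0.31 (-0.38 to -0.24). At least 4 UMIs were held by 25.8% of TAC+ART, 15.6% of TAC and 29.4% of Sham fibroblasts. The lower level in TAC was not seen in every class: endothelial cells had 696 CPM in TAC+ART, 762 CPM in TAC and 638 CPM in Sham, a TAC over Sham ratio of 0.26 (0.18 to 0.33), and lymphatic endothelial cells had 1544, 1393 and 1397 CPM, a ratio of -0.01 (-0.13 to 0.13). Cardiomyocytes were higher in TAC, 0.93 (0.67 to 1.18). Pericytes, at -0.38 (-0.54 to -0.22), and endocardial cells, at -0.19 (-0.35 to -0.02), were lower in TAC by less than 1.5-fold, and macrophages, described below, by more.

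As a result the order of classes for Timp3 differed between libraries. Lymphatic endothelium was first in all 3. In Sham, fibroblasts ranked with endothelial cells, with intervals of 594 to 641 CPM and 611 to 667 CPM that overlap, and in TAC 4 classes lay above fibroblasts. The nearest was pericytes with 336 CPM, whose interval began at 310.3 CPM where that of fibroblasts ended at 310.5 CPM. Pericytes had 377 CPM in TAC+ART and 437 CPM in Sham. Macrophages, low in Timp3, had 97.6 CPM in TAC+ART, 67.0 CPM in TAC and 111 CPM in Sham, a TAC over Sham ratio of -0.74 (-0.99 to -0.47). Endothelial markers in macrophages summed to 348 CPM in TAC+ART, 308 CPM in TAC and 916 CPM in Sham, with 0 of 9 higher in TAC than in Sham and none at 0, and their part in this ratio was not tested. Timp3 lies inside Syn3 on the opposite strand, and Syn3 counts moved with it, at 71.7, 37.5 and 112 CPM in TAC+ART, TAC and Sham fibroblasts and 99.5, 133 and 95.5 CPM in endothelial cells. No label says whether counting used the strand, and the part of Syn3 reads in the Timp3 counts was not tested. Timp1 lies likewise inside Syn1, which was low, with 2.92, 7.87 and 3.24 CPM in the fibroblasts of TAC+ART, TAC and Sham.

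Timp4 (chr6:115241892-115252205, minus strand), known for its high expression in the heart, was found mainly in endothelial cells and did not differ by 1.5-fold there. It was 155 CPM in TAC+ART, 166 CPM in TAC and 157 CPM in Sham, and endothelial cells held 67.3, 67.3 and 70.8% of its UMIs. The TAC over Sham ratio was 0.08 (-0.07 to 0.24) and the TAC+ART over TAC ratio -0.10 (-0.23 to 0.02), so a difference of 1.5-fold in either comparison lies outside the counting interval. Cardiomyocytes had 23.4, 27.4 and 12.7 CPM and lymphatic endothelial cells 25.6, 19.6 and 15.2 CPM, with overlapping intervals. Endocardial cells, a close relative of the endothelial class, had 4.51, 5.48 and 7.67 CPM. Fibroblast Timp4 rested on few counts, 86, 77 and 30 UMIs, and its only call, 0.64 (0.04 to 1.30) for TAC+ART over Sham, was 0.50 with scored doublets kept and 0.53 as a mean over cells, both short of 1.5-fold. Timp4 lies inside Syn2 on the opposite strand, and Syn2 was 11.3, 9.55 and 8.31 CPM in endothelial cells of TAC+ART, TAC and Sham. Elsewhere it exceeded Timp4, with 54.1, 57.2 and 45.1 CPM in fibroblasts and 102, 97.8 and 157 CPM in lymphatic endothelial cells. The part of Syn2 reads in the low Timp4 counts of those classes, the fibroblast call included, was not tested.

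Mmp2 (chr8:92827291-92853420, plus strand), gelatinase A, was a fibroblast gene with a modest difference. It was 209 CPM in TAC+ART, 244 CPM in TAC and 151 CPM in Sham. TAC over Sham was 0.69 (0.56 to 0.82), which became 0.57 when clusters were used in place of the per-cell gate, and TAC+ART over TAC was -0.22 (-0.32 to -0.13). Its level in the 6 other classes was 17.3 to 25.0% of the fibroblast level in TAC+ART, 14.8 to 33.8% in TAC and 9.62 to 23.1% in Sham, close to the share of the fibroblast marker list, so no order of the other classes is given. Mmp2 was above that list in several classes, among them TAC cardiomyocytes, 33.8% against 27.4%, and TAC lymphatic endothelial cells, 23.8% against 19.4%. In Sham it was above in lymphatic endothelial cells, 23.1% against 17.5%, macrophages, 19.0% against 14.1%, and endothelial cells, 13.1% against 9.90%. It was below in others, such as Sham pericytes, 13.1% against 19.3%. Fibroblasts held 55.7, 51.4 and 61.0% of its UMIs.

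Mmp14 (chr14:54431612-54445364, plus strand), the membrane-bound activator of Mmp2, was 52.0 CPM in TAC+ART fibroblasts, 105 CPM in TAC and 30.1 CPM in Sham. Those are 409, 839 and 130 UMIs. TAC over Sham was 1.80 (1.53 to 2.08), or 3.47-fold, TAC+ART over TAC was -1.01 (-1.19 to -0.84), and TAC+ART over Sham was 0.78 (0.50 to 1.08). Unlike Mmp2, it was as high or higher in lymphatic endothelium. Lymphatic endothelial cells had 92.6 CPM in TAC+ART, 116 CPM in TAC and 52.2 CPM in Sham, and pericytes had 53.1, 72.1 and 35.9 CPM. In TAC the intervals of lymphatic endothelial cells (99.4 to 135 CPM) and fibroblasts (97.9 to 112 CPM) overlapped, while in TAC+ART lymphatic endothelial cells (74.2 to 114 CPM) lay above fibroblasts (47.1 to 57.3 CPM). The TAC over Sham ratio was 1.13 (0.53 to 1.83) in lymphatic endothelial cells, 1.0 (0.55 to 1.48) in pericytes and 2.09 (1.46 to 2.84) in endothelial cells, so Mmp14 was higher in TAC in all 4 classes named.

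The genes of the surface complex were also counted in single fibroblasts. After thinning to 2000 UMIs, 24 of 1373 TAC+ART fibroblasts held a UMI of Mmp14, Timp2 and Mmp2 together, which is 1.75% (1.12 to 2.59%). In TAC 49 of 1233 did, 3.97% (2.95 to 5.22%), and in Sham 5 of 843, 0.593% (0.193 to 1.38%). The TAC interval lies above the others, and those of TAC+ART and Sham overlap. No link between the genes within a cell is read from this, since each gene alone was also most often seen in TAC. Alone, Mmp14 was seen in 9.61, 18.4 and 4.63% of these thinned cells, Timp2 in 42.2, 51.3 and 32.6%, and Mmp2 in 33.1, 36.4 and 23.4%.

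Mmp3 (chr9:7445822-7455975, plus strand), stromelysin-1, which cuts proteoglycans and fibronectin and activates other metalloproteases, was low outside TAC. Fibroblasts had 11.9 CPM in TAC+ART, 52.0 CPM in TAC and 13.7 CPM in Sham, from 94, 416 and 59 UMIs. TAC over Sham was 1.92 (1.53 to 2.35) and TAC+ART over TAC -2.12 (-2.46 to -1.80), while TAC+ART over Sham was -0.20 (-0.68 to 0.30). The UMIs were concentrated in few cells: 16.2% of TAC fibroblasts held any, and 26 TAC fibroblasts held at least 4. After thinning to 1000 UMIs the shares were 1.28% in TAC+ART, 4.03% in TAC and 1.05% in Sham, against 1.23, 3.18 and 0% in cardiomyocytes, and the intervals of the 2 classes overlapped in each library. Other classes had 1.90 to 8.52 CPM in TAC+ART, 11.7 to 24.5 CPM in TAC and at most 2.55 CPM in Sham, where endocardial and lymphatic endothelial cells had 0 UMIs, which allows up to 3.29 and 6.53 CPM. In endothelial cells the UMIs were 28, 110 and 3, a TAC over Sham ratio of 3.94 (2.57 to 6.45).

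The promoters of the 3 genes most raised in TAC fibroblasts, Timp1, Mmp3 and Mmp14, are printed because these genes had the largest TAC over Sham ratios of the 9. They are the 250 bases before the start given by RefSeq on GRCm38.p6, 5′ to 3′ on the gene's strand, at chrX:20869916-20870165, chr9:7445572-7445821 and chr14:54431348-54431597, all on the plus strand. Capitals mark the pattern TGANTCA, a form of the letters that AP-1 factors bind, which reads the same on both strands.
Timp1: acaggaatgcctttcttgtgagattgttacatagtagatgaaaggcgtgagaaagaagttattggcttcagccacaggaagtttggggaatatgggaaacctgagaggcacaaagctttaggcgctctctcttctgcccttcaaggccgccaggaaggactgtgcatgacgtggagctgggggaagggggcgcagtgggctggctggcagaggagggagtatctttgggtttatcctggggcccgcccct
Mmp3: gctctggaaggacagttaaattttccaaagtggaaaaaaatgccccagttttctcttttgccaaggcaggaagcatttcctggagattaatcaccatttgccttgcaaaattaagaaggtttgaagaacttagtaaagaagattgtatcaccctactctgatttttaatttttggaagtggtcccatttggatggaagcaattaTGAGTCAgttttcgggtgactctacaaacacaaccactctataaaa
Mmp14: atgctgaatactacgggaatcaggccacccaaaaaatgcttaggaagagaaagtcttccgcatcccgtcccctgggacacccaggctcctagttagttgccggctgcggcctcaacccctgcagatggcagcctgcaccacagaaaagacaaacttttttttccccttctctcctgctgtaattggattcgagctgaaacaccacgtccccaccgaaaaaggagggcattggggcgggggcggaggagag
Mmp3 held 1 match, TGAGTCA, 46 bases before its start, and Timp1 and Mmp14 held 0, as did Timp2, Timp3, Timp4 and Adamts2. Of 32851 mouse promoters of this length, 6.75% held the pattern. The GC content of the windows was 54.4% for Timp1, 37.6% for Mmp3 and 55.2% for Mmp14. A match describes the letters of the window and is not evidence of binding.

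Adamts2 (chr11:50602084-50807573, plus strand) was 320 CPM in TAC+ART fibroblasts, 493 CPM in TAC and 251 CPM in Sham. TAC over Sham was 0.97 (0.88 to 1.07). TAC+ART over TAC was -0.62 (-0.70 to -0.55), close to the limit of a call, and -0.57 with TMM scaling, which falls short. At least 4 UMIs were found in 15.9% of TAC+ART, 34.9% of TAC and 9.48% of Sham fibroblasts. Pericytes came next with 155, 213 and 164 CPM, 0.38 (0.15 to 0.61) for TAC over Sham, and all other classes were at 2.62 to 17.0% of the fibroblast level. Endothelial cells, at 31.8, 36.7 and 34.5 CPM, showed no 1.5-fold difference. For TAC over Sham, 1.5-fold lies outside the counting interval of their ratio, 0.09 (-0.24 to 0.43). Fibroblasts held 61.2, 61.3 and 59.5% of all Adamts2 UMIs, the largest fibroblast share among the 9 genes in TAC+ART and TAC.

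Fap (chr2:62500943-62574075, minus strand), fibroblast activation protein, cuts after proline and is widely used to mark activated fibroblasts. In these libraries it was 297 CPM in TAC+ART fibroblasts, 147 CPM in TAC and 301 CPM in Sham, from 2340, 1177 and 1300 UMIs. TAC over Sham was -1.03 (-1.15 to -0.92), TAC+ART over TAC 1.01 (0.91 to 1.12), and TAC+ART over Sham -0.02 (-0.12 to 0.08), so TAC+ART and Sham differed by much less than 1.5-fold. The share of fibroblasts with a UMI after thinning was 23.6% in TAC+ART, 11.7% in TAC and 24.7% in Sham, and cells with at least 4 UMIs made up 16.4, 6.05 and 14.1%.

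Pericytes, the mural cells of capillaries, had more Fap than fibroblasts in every library: 367 CPM in TAC+ART, 336 CPM in TAC and 412 CPM in Sham, or 123, 228 and 137% of the fibroblast level. Their TAC over Sham ratio of -0.30 (-0.45 to -0.14) and TAC+ART over TAC ratio of 0.13 (-0.03 to 0.28) stayed within 1.5-fold. Lymphatic endothelial cells came next in TAC+ART and Sham, with 66.0 CPM in TAC+ART, 27.0 CPM in TAC and 74.0 CPM in Sham, on 62, 40 and 34 UMIs, and had a TAC+ART over TAC ratio of 1.28 (0.69 to 1.90). A single TAC+ART cell held 20 of those 62 UMIs, and the share of lymphatic endothelial cells with a Fap UMI was 12.0% in TAC+ART and 10.1% in TAC, or 2.60 and 3.25% after thinning, so the ratio leans on few cells. Cardiomyocytes, endothelial cells, endocardial cells and macrophages had 10.9 to 45.2 CPM across the libraries. Apart from pericytes, no class was above 24.6% of the fibroblast level.

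The fibroblasts themselves were not alike between libraries, and this touches each fibroblast ratio above. Cells with a UMI of Postn (periostin, a matricellular protein of activated fibroblasts) numbered 712 in TAC+ART, 1091 in TAC and 71 in Sham, and those without one 692, 199 and 783. The sets differed in depth, with medians of 5794, 6486 and 6040 UMIs with Postn and 5036, 5369 and 4751 UMIs without, and the part of depth in the split was not tested. Fap was low in TAC in both sets. With Postn it was 273 CPM in TAC+ART, 145 CPM in TAC and 298 CPM in Sham; without Postn it was 324, 160.4 and 301 CPM. The TAC over Sham ratios were -1.04 (-1.31 to -0.76) and -0.91 (-1.15 to -0.68). Timp3 behaved in the same manner, with 469, 297 and 544 CPM with Postn and 533, 306 and 625 CPM without, ratios of -0.88 (-1.07 to -0.67) and -1.03 (-1.20 to -0.86).

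Timp1 was higher with Postn than without it in each library. The levels with Postn were 21.4 CPM in TAC+ART, 131 CPM in TAC and 54.4 CPM in Sham, and without Postn 11.6, 65.6 and 5.13 CPM. In the Postn set TAC+ART was below Sham, -1.37 (-2.02 to -0.62), although Sham there rests on 23 UMIs in 71 cells; in the set without Postn it was above, 1.16 (0.38 to 2.02). Mmp14 in TAC hardly differed between the sets, 105 and 102 CPM with and without Postn, and the TAC level of Mmp3 was 52.1 and 51.1 CPM. No Mmp3 UMI was found in the Sham cells with Postn, which allows up to 7.10 CPM, against 15.1 CPM in those without. Adamts2 was 339, 500.2 and 319 CPM with Postn and 299, 449 and 244 CPM without in TAC+ART, TAC and Sham.

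**Figure D3:**
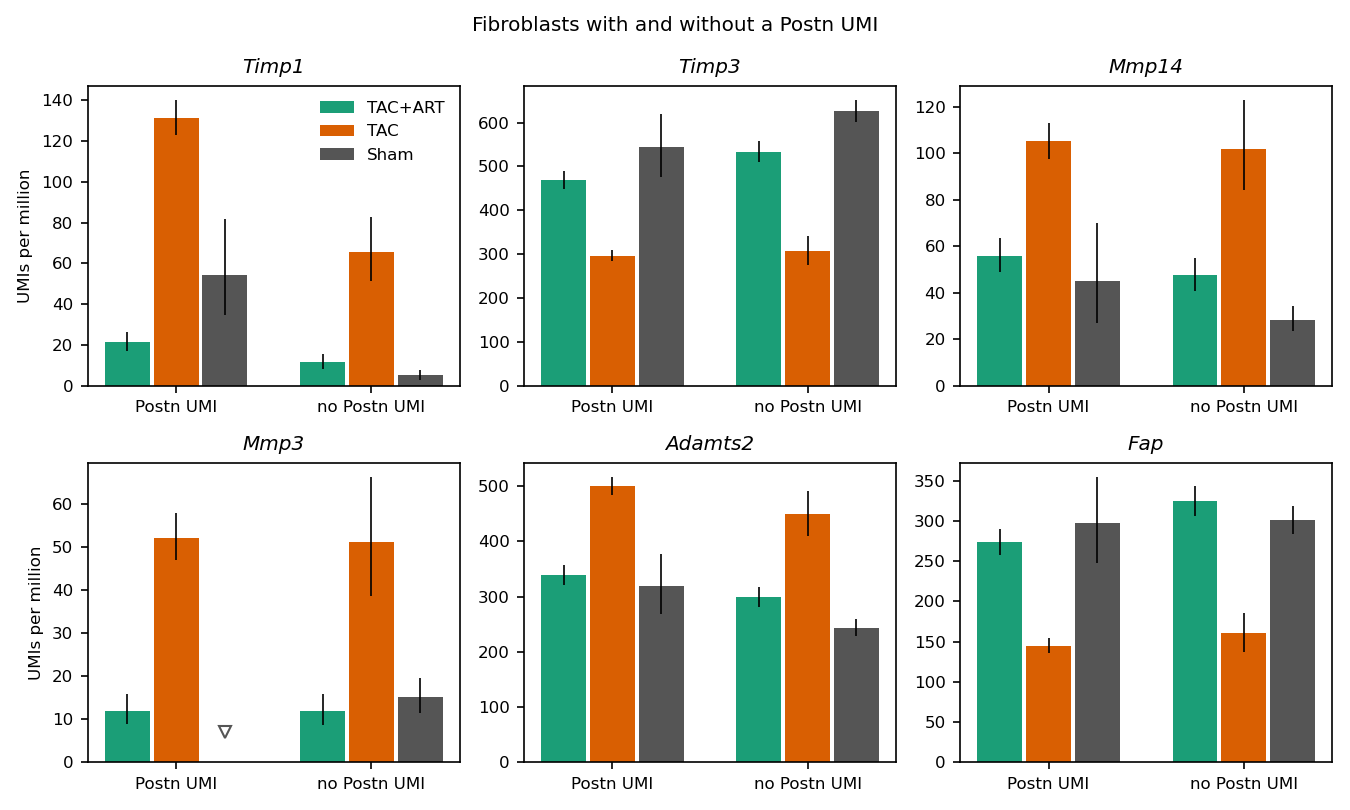
Level of 6 genes (CPM, axis from 0) in fibroblasts with and without a Postn UMI, in TAC+ART, TAC and Sham; bars are 1 library each, lines are 95% Poisson intervals, and the open triangle marks the limit that 0 UMIs of Mmp3 allow. In both sets Timp3 and Fap are lowest in TAC and Mmp14 and Mmp3 highest, with Timp1 at 131 CPM in TAC cells with Postn.

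Smaller sets of fibroblasts were compared for Fap as well. Cells with a UMI of Thbs4 or Comp, matrix genes linked to activated fibroblasts, numbered 142 in TAC+ART, 420 in TAC and 9 in Sham, and their Fap level was 216, 122 and 241 CPM, the last on 13 UMIs with an interval of 128 to 412 CPM that overlaps the TAC interval of 109 to 136 CPM. Cells with a UMI of Grm8, a glutamate receptor gene, numbered 81, 13 and 92, and had the highest Fap of the 4 sets in TAC+ART and Sham, 420.1 CPM in TAC+ART, 165 CPM in TAC and 526 CPM in Sham. In those 13 TAC cells only 15 Fap UMIs were counted. Timp1 was 24.8 CPM in TAC+ART and 142 CPM in TAC in the Thbs4 or Comp set, with 0 UMIs in the 9 Sham cells, too few to place Sham.

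By unsupervised cluster the gated fibroblasts split largely by library. Cluster 0 held 71.1% of the TAC cells, cluster 6 held 49.7% of the TAC+ART cells and cluster 8 held 59.95% of the Sham cells. Only cluster 9, led by C7 and Scara5, held over 200 cells of each library, 272 in TAC+ART, 221 in TAC and 237 in Sham. There Timp1 was 19.99, 121 and 12.7 CPM, Mmp14 was 45.4, 88.3 and 32.1 CPM, and Fap was 136, 72.4 and 175 CPM, the order seen in all fibroblasts. Mmp3 was different: 10.9, 18.4 and 16.4 CPM with overlapping intervals in cluster 9, while 368 of the 416 TAC UMIs lay in cluster 0, at 62.4 CPM. Timp3 in cluster 9 was 422, 297 and 381 CPM, a smaller gap than in the class as a whole.

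Within cluster 0 itself, Fap was 154 CPM in 182 TAC+ART cells, 162 CPM in 917 TAC cells and 83.6 CPM in 21 Sham cells, and within cluster 6 it was 389, 355 and 236 CPM. The Sham level in cluster 0 rests on 10 UMIs, and its interval of 40.1 to 154 CPM overlapped that of TAC, 152 to 173 CPM. Cluster 6 had 41 TAC and 80 Sham cells, and their intervals of 283 to 440 CPM and 189 to 293 CPM overlapped. The lower TAC level of Fap in the class was not seen inside these 2 clusters, where few cells place Sham or TAC, although it was in cluster 9. Cluster 8 held 380, 215 and 389 CPM with 14 TAC cells. Timp1 in cluster 0 was 37.0, 106 and 109 CPM in TAC+ART, TAC and Sham, the last on 13 UMIs with an interval of 57.9 to 186 CPM. Mmp14 there was 70.4, 106 and 92.0 CPM, with 11 Sham UMIs. So TAC and Sham could not be separated for these genes inside cluster 0. In clusters 6 and 8 Timp1 was 42.3 and 50.5 CPM in TAC, on 10 and 4 UMIs, against 14.1 and 3.20 CPM in Sham. The clusters were made from all genes, the 9 included, so these levels are descriptions. Cluster 13, led by Top2a and Mki67 and left unnamed, held 36, 94 and 3 of the gated fibroblasts at a median of 2114, 1904 and 1730 UMIs. Its 94 TAC cells had 719 CPM of Timp1 and 149 of the 977 UMIs; with named clusters in place of the gate, which leaves it out, the TAC over Sham ratio of Timp1 was 3.41, the lowest of a range of 3.41 to 3.95 over 7 alternatives.

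**Figure D4:**
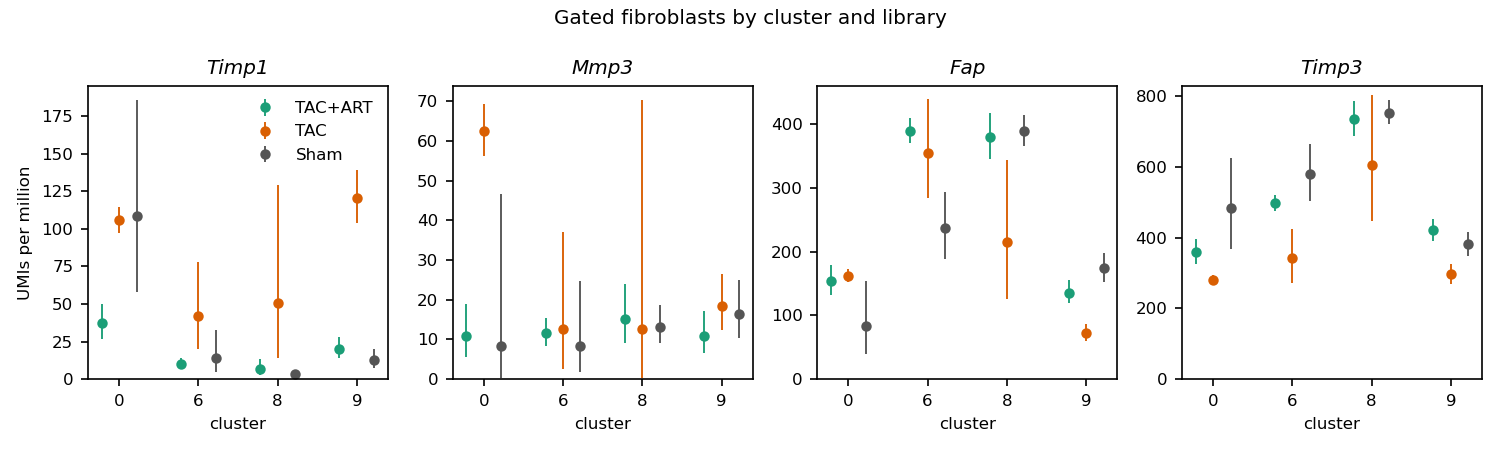
Level of Timp1, Mmp3, Fap and Timp3 (CPM) in gated fibroblasts of clusters 0, 6, 8 and 9, for TAC+ART, TAC and Sham; points are 1 library each with 95% Poisson intervals, wide where a library has few cells. Cluster 9, with over 200 cells per library, shows Timp1 at 121 CPM in TAC against 19.99 CPM in TAC+ART and 12.7 CPM in Sham, while its Mmp3 intervals overlap. In cluster 0 Timp1 is 106 CPM in TAC and 109 CPM in 21 Sham cells, with overlapping intervals.

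Outside fibroblasts, Timp2 and Mmp2 were called higher in TAC than in Sham in 5 of 6 classes each. In endothelial cells all 9 genes had enough UMIs, and 5 were higher and 0 lower, with 10.3% and 7.45% of all genes called. In macrophages 6 had enough, of which Timp1 and Timp2 were higher and Timp3 lower (11.1% and 10.2%). In pericytes Timp2, Mmp2 and Mmp14 were higher of 6 (10.7% of all genes higher, 6.09% lower), and in lymphatic endothelial cells Timp2, Mmp2 and Mmp14 were higher of 4 (13% and 7.4%), Mmp2 with a ratio of 0.70 whose interval of -0.04 to 1.61 includes 0. In endocardial cells Mmp2 was the only one of 3 (10.2% and 7.89%). In cardiomyocytes Timp1, Timp2, Timp3, Mmp2 and Adamts2, all 5 that had enough UMIs, were higher, where 30.9% of all genes were called higher and 17.3% lower. The fibroblast markers summed to 3292 CPM in TAC+ART, 3582 CPM in TAC and 913 CPM in Sham cardiomyocytes, and their part in those 5 ratios was not tested. In the same order of libraries the sum was 3111, 2604 and 1078 CPM in endothelial cells and 3721, 2890 and 1633 CPM in endocardial cells. It was 3802, 3189 and 2098 CPM in pericytes, 3494, 2540 and 1906 CPM in lymphatic endothelial cells, and 2767, 2286 and 1533 CPM in macrophages. Its part in the ratios of those classes, Mmp2 included, was not tested.

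For TAC+ART over TAC, no gene was higher except Timp3 and Fap in fibroblasts and Fap in lymphatic endothelial cells, the call in which 1 cell holds 20 of 62 UMIs (5.28% of genes there called higher and 4.89% lower). Lower were Timp1, Mmp14 and Mmp3 in endothelial cells (5.07% of all genes higher, 4.91% lower), Timp1, Mmp3 and Adamts2 in macrophages (5.28% and 5.49%), Timp1 in endocardial cells (5.69% and 5.16%), and Timp1, Mmp2 and Adamts2 in cardiomyocytes (8% and 17.5%). In pericytes 0 of 6 were called in either direction (2.96% and 4.47%). For TAC+ART over Sham, Timp2, Mmp2 and Mmp14 were higher in endothelial cells (4.89% of all genes higher, 2.46% lower), Timp2 and Mmp2 in pericytes (6.09% and 3.23%), Mmp14 in lymphatic endothelial cells (6.86% and 4.65%) and Timp2 in endocardial cells (7.56% and 3.79%). Cardiomyocytes had 5 genes higher, Timp2, Timp3, Mmp2, Adamts2 and Fap (17.6% and 6.73%), and macrophages had Fap lower (6.28% higher and 7.45% lower).

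**Figure D5:**
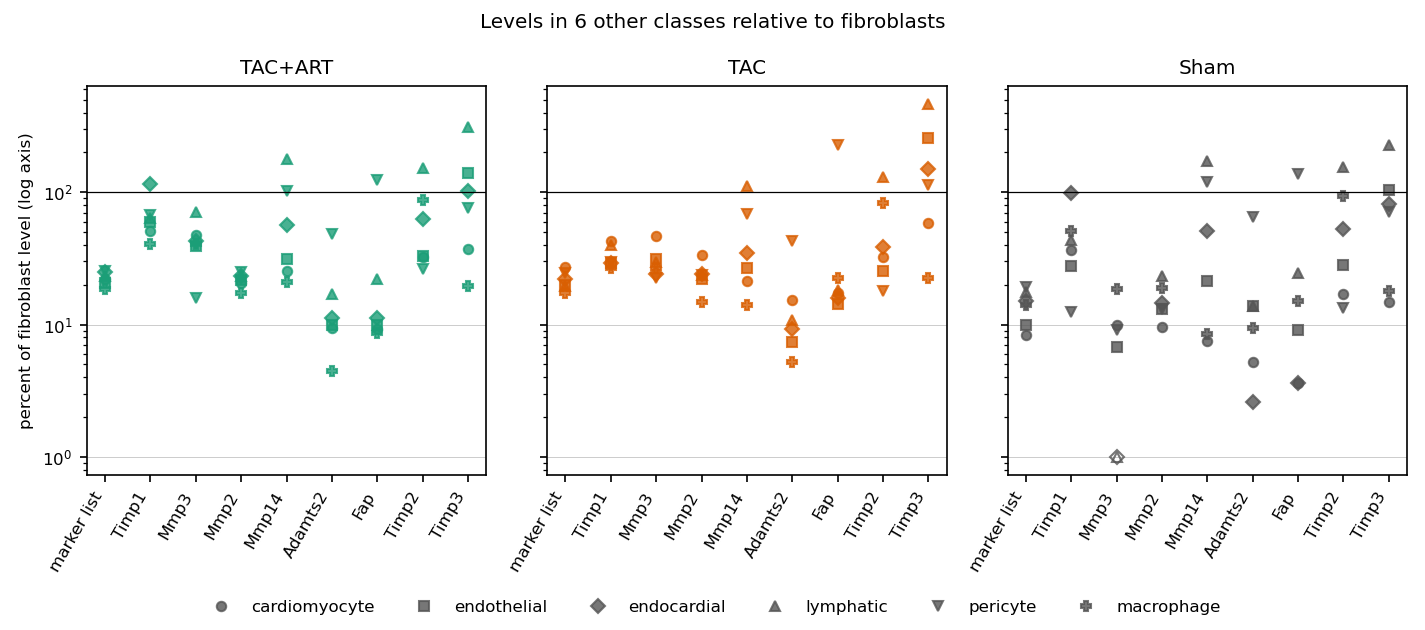
Level in each of 6 other classes as percent of the fibroblast level of the same library (log axis), for the summed fibroblast marker list and 8 genes, in TAC+ART, TAC and Sham; each symbol is 1 class, and the open symbols drawn at 1% stand for 0 UMIs. Mmp2 lies close to the marker list in each library, Timp1 lies above it in TAC+ART and TAC, and Fap in pericytes and Timp3 in lymphatic endothelium lie above 100%.

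Other proteases and inhibitors in fibroblasts moved less evenly. Of 10 cathepsins and cystatins, 9 were higher in TAC than in Sham and 0 lower, with a median log2 ratio of 1.27 against 0.03 for all genes. Macrophage markers, which mark a class rich in cathepsins, summed to 235 CPM in TAC+ART, 261 CPM in TAC and 109 CPM in Sham fibroblasts, with 10 of 10 higher in TAC than in Sham, and their part in these ratios was not tested. The 9 included Cst3 (cystatin C, an inhibitor of cysteine cathepsins), at 678 CPM in TAC and 137 CPM in Sham, and Ctsk (cathepsin K), whose ratio was 0.75 (0.35 to 1.19). In TAC+ART over TAC, 2 of the 10 were lower, Cst3 at -0.59 (-0.65 to -0.53) and Cst6 at -0.78 (-1.07 to -0.49), and 0 higher, where 6.61% and 6.46% of all genes were called lower and higher. Of 9 genes of plasminogen activation and serine protease inhibition with enough UMIs, 5 were higher and 1 lower in TAC, where 16.8% and 11.2% of all genes were called. Serpina3n, an acute phase inhibitor, was 177 CPM in TAC and 22.9 CPM in Sham, a ratio of 2.94 (2.65 to 3.25), and -2.38 (-2.57 to -2.19) in TAC+ART over TAC. Htra1, a secreted serine protease, was lower in TAC by the ratio -1.54 (-1.85 to -1.23).

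Over all genes in fibroblasts, 16.8% were higher and 11.2% lower in TAC, and the counts of the ADAMTS and ADAM lists lay near these shares. Of 5 other matrix metalloproteases with enough UMIs, out of 15 found, 0 were higher in TAC and 2 lower: Mmp11 at -0.999 (-1.43 to -0.57) and the membrane-type Mmp16 at -0.87 (-1.02 to -0.71). Mmp16 was higher in TAC+ART than in TAC, 0.61 (0.47 to 0.75). Of 15 ADAMTS and ADAMTS-like genes, 2 were higher and 2 lower in TAC, with a median of -0.14. Adamtsl2, which binds fibrillin microfibrils and has no protease domain, was 292 CPM in TAC and 24.8 CPM in Sham, a ratio of 3.55 (3.28 to 3.85), and Adamtsl3 was 195 CPM in TAC and 569 CPM in Sham, -1.54 (-1.64 to -1.45). Among 7 ADAM proteases 1 was higher, Adam15 at 0.66 (0.40 to 0.94), and 1 lower, Adam22 at -1.51 (-1.97 to -1.07).

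Procollagen processing split in both directions, 2 higher and 4 lower of 8 in TAC, beside 16.8% and 11.2% of all genes. Pcolce, the enhancer of carboxyl-propeptide removal, was higher by 1.37 (1.23 to 1.502), as was Sfrp2 by 1.88 (1.28 to 2.58). Tll2, a tolloid-like protease, was 24.8 CPM in TAC and 172 CPM in Sham, -2.79 (-3.03 to -2.57), and 1.93 (1.71 to 2.17) in TAC+ART over TAC. Pcsk6, a proprotein convertase, was -1.44 (-1.49 to -1.38) and 0.87 (0.82 to 0.92) in the same comparisons. Of 5 prolyl peptidases related to Fap, 0 were called in either direction, and the nearest relative, Dpp4, had a TAC over Sham ratio of -0.58 (-0.88 to -0.28). Of 8 regulators, 3 were higher and 0 lower (16.8% and 11.2% of all genes), Sparc at 1.79 (1.71 to 1.88) and Cd44, a docking receptor for metalloproteases, at 1.42 (1.06 to 1.80) among them. Reck, a membrane-anchored inhibitor of metalloproteases, was 78.2 CPM in TAC and 117 CPM in Sham fibroblasts, a ratio of -0.58 (-0.75 to -0.41), just short of 1.5-fold.

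The genes most like each of the 9 were sought by Pearson's r of log2(CPM + 10) over the 21 points of 7 classes in 3 libraries, among 9810 genes. The points share libraries, depth and class composition, so r is a description only. Timp1 was most like Thbs4 (0.96) and Lox (0.95), and Mmp3 had Mfap4 (0.91) and C3 (0.91) among the genes most like it. Mmp2 was most like Loxl1 (0.98), Ccn5 (0.98) and Ssc5d (0.98), and Adamts2 most like Cd248 (0.97), Gpr153 (0.97) and Mrc2 (0.96). Mmp14 had Snai1 (0.92), Plac9a (0.89) and Serpine2 (0.89), and Timp2 had Rnase4 (0.91), Gas7 (0.89) and Fgfr1 (0.88). Timp3 had Lama4 (0.98), Gm8098 (0.97) and Syn3, the gene it lies in (0.96). Timp4 had Car4, Aplnr and Aqp7 (0.97, 0.96 and 0.96), genes of capillary endothelium, and Fap had Adgrl3, Gna14 and D630033O11Rik (all 0.96).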

How the data were processed

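What the authors deposited for each of the 3 libraries is a matrix of UMI counts, whole numbers that were not normalized. Cell Ranger, Seurat and the build mm10 are named, per the submitters' processing notes, and no version is. Total depth was 33364667 UMIs in TAC+ART, 37658150 in TAC and 17710689 in Sham. A barcode was kept from 500 UMIs and 300 genes upwards if its mitochondrial share was 10% or less. An own implementation of Scrublet's score then removed the top 0.8% per 1000 barcodes as doublets (376, 440 and 112 in TAC+ART, TAC and Sham). Barcode sequences shared between libraries were few, 27 for TAC+ART and TAC, 20 for TAC+ART and Sham and 20 for TAC and Sham.

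Each cell was scored for 13 marker lists by the mean z value of depth-scaled log counts within its library, and was put in the best class where its score was at least 0.2 and at least 0.2 above the next. The gate was set after looking at markers and clusters, and a Schwann list was left out because Scn7a, Gpm6b and Cdh19 were high in fibroblasts. Near the gate, within 0.1, lay 124 TAC+ART, 105 TAC and 79 Sham fibroblasts. Clusters used 3000 variable genes, 30 components, 20 neighbours and the Leiden method at resolution 1, without integration. Counts were summed per class and library. Ratios are log2 of the summed counts over class totals with 0.5 added, with conditional binomial intervals; levels have Poisson and shares Clopper-Pearson intervals, all at 95% and for counting error only. With 1 library per group no test was possible; a call is 1.5-fold with at least 100 UMIs in both libraries together. A count of 0 is given the limit of 3 counts.

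The 9 genes and the wider lists were chosen with earlier results of these data known. Named genes were the 9, and of each wider list the 2 highest and 2 lowest ratios per comparison in fibroblasts with at least 100 UMIs; a selection of these is printed. Likeness used genes of at least 30 CPM at 1 point, and the 3 most like are named except where one is not reported here. Positions are from GENCODE M21 and promoters from RefSeq. The ratio and interval code was tested on simulated data. Software was Python 3.11.15, scanpy 1.11.5, leidenalg 0.10.2, scipy 1.17.1, and edgeR 4.0.16 in R 4.3.3 for TMM factors.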

Additional observations from a re-analysis of the deposited data

Results flagged for a closer look

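2 of the 9 genes had called ratios of opposite sign in different cell classes. The share of all genes that do so was not computed, and no excess among the 9 is read from this count. The difference between the classes was not tested, as there is 1 library per group. Timp3 in TAC over Sham was 0.93 (interval 0.67 to 1.18) in cardiomyocytes, against -1.05 in fibroblasts and -0.74 in macrophages. Fap in TAC+ART over Sham was 1.33 (0.67 to 2.08) in cardiomyocytes and -0.82 (-1.27 to -0.36) in macrophages.

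The cardiomyocyte values rest on few counts for Fap, 78 UMIs in TAC+ART and 24 in Sham. In cells of clusters named cardiomyocyte, the Timp3 ratio was 0.43 and the Fap ratio 0.24, neither of them called. In gated cardiomyocytes the endothelial marker list summed to 956 CPM in TAC+ART, 1515 CPM in TAC and 476 CPM in Sham, and the fibroblast list differed likewise, as given above. In macrophages the endothelial list summed to 348 CPM in TAC+ART, 308 CPM in TAC and 916 CPM in Sham. Whether RNA of those classes makes up the cardiomyocyte and macrophage ratios was not tested.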

How the results depend on the processing

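Over all classes and comparisons, 61 ratios were called, and all 61 kept their sign under 7 alternatives: clusters named by the same markers, a gate margin of 0.5, scored doublets kept, TMM factors, cells of at most 8000 UMIs, a mean over cells, and shared barcodes left out. Still past 1.5-fold were 56 with clusters, 59 with doublets kept, 61 without shared barcodes and 60 under each of the other 4. The cause of the lost calls was not tested. With clusters the calls lost were Mmp2 in fibroblasts (0.57, TAC over Sham), Timp3 in cardiomyocytes (0.43 for TAC and 0.41 for TAC+ART over Sham), and Adamts2 (0.39) and Fap (0.24) in cardiomyocytes for TAC+ART over Sham. A margin of 0.5 lost Timp3 in macrophages (-0.52), kept doublets lost Adamts2 in macrophages (-0.51, TAC+ART over TAC), and the limit of 8000 UMIs lost Timp2 in lymphatic endothelium (0.52). With clusters, the TAC over Sham ratio moved by over 1.5-fold for Adamts2 in cardiomyocytes (1.39), Timp1 (4.61) and Mmp3 (3.21) in endothelial cells, Timp1 in macrophages (3.26, and 3.28 at up to 8000 UMIs) and Mmp2 in lymphatic endothelium (1.86, and 1.49 at a margin of 0.5). In cardiomyocytes TMM factors shifted every ratio of TAC over Sham by -0.11 and of TAC+ART over TAC by 0.12, and elsewhere by at most 0.07.

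The counts depend on the limits. Without the minimum of 100 UMIs, calls over all classes numbered 46 in place of 28 for TAC over Sham and 38 in place of 16 for TAC+ART over Sham. At 2-fold, chosen after seeing the data, they numbered 18 for TAC over Sham, 11 in place of 17 for TAC+ART over TAC, and 9 for TAC+ART over Sham. Fibroblast genes called higher were then 3 in place of 6, 1 in place of 2, and 0 in place of 3 in these comparisons. The share of all genes called at these other limits was not computed, so the counts show only how the calls depend on the limits. No library could be left out and no paired analysis was possible because each group had 1 library. Depth limits the low genes: in fibroblasts outside TAC, Mmp3 rests on 94 UMIs in TAC+ART and 59 in Sham, Timp4 on 86 and 30, and Timp1 on 132 and 43.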
